A study of Mus musculus with 20 samples.

Results

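The 49 genes described here are cell cycle genes of the mouse, 23 acting in DNA replication and the step from G1 into S phase and 26 acting in mitosis. They were taken by name from a list of replication and mitosis genes, out of 55260 genes, and their transcript counts were summed per gene. Each was followed through 20 RNA-seq libraries made from leukocytes of MC38-OVA tumours, a colon carcinoma line that carries ovalbumin, grown in C57BL/6 mice. From each pool, 4 populations were sorted: CD8 T cells, CD11c+ CD11b- DCs, CD11c+ CD11b+ DCs (both called dendritic cells in the labels) and CD11c- CD11b+ myeloid cells. These names are kept from the labels for the sorted fractions and do not state which cell types each fraction held. Tumours had received focal radiotherapy (RT, 8 Gy on day 12) with αSIRPα and αPD-1 (RT+αSIRPα+αPD-1), with αPD-1 (RT+αPD-1), with αSIRPα (RT+αSIRPα) or with no antibody (RT alone). The untreated pool came from sham-irradiated tumours with no antibody. αSIRPα (400 µg a dose) is an antibody against SIRPα, the receptor on myeloid cells for CD47, and αPD-1 (250 µg a dose) is an antibody against PD-1, an inhibitory receptor of T cells. Tumours were taken on day 17, 5 days after irradiation. Leukocytes of 10 mice, 1 tumour from each, were pooled per treatment, so no group had a second library, and the 4 populations of a treatment share a pool. Differences between treatments are therefore differences between pools, and no p-value measures the spread between pools of the same treatment. In tests between populations the spread is how far their difference varied over the pools. In tests of irradiation it includes antibody effects. In tests of an antibody it includes how far the antibodies departed from adding up.

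A dividing cell copies its DNA once in S phase and segregates the copies in mitosis. Cyclin E and the E2F factors open S phase: the MCM helicase, loaded by Cdc6 and fired with Cdc45 and the GINS complex, unwinds DNA, ribonucleotide reductase and thymidylate synthase supply nucleotides, and PCNA holds the polymerases. The B-Myb and FoxM1 factors then raise the mitotic genes, among them cyclins A and B with Cdk1, the Plk1 and Aurora kinases, the spindle motors and Cdc20, which directs the ubiquitin ligase that ends mitosis. CD8 T cells divide rapidly after antigen recognition, whereas most tissue macrophages and dendritic cells divide slowly, so the transcripts of these genes are commonly read as a mark of cycling cells. In bulk RNA, more cycling cells and more of these transcripts in each cell cannot be told apart.

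Promoter sequence is shown first for 5 members that the results turn on, since the motifs found there were spread unequally over replication and mitotic members. The windows run from 250 bases before to 50 bases after the RefSeq transcription start on GRCm38.p6, 5′ to 3′ on the gene's strand, and 40 of the 49 members had one. Capitals mark the motifs searched on both strands: the CHR element (TTTGAA or TTCGAA), the CCAAT box (CCAAT) and the E2F site (TTTGGCGC, TTTGCCGC, TTTCGCGC or TTTCCCGC). Cdk1, the mitotic kinase, has its window at chr10:69352863-69353162, minus strand. Top2a, the topoisomerase that untangles sister chromosomes, has it at chr11:99024140-99024439, minus strand. Cdc20, the activator of the mitotic ubiquitin ligase, has it at chr4:118437294-118437593, minus strand. Mki67, the chromosome coat protein Ki-67, has it at chr7:135716330-135716629, minus strand. Mcm5, a subunit of the replicative helicase, has it at chr8:75109259-75109558, plus strand.
Cdk1: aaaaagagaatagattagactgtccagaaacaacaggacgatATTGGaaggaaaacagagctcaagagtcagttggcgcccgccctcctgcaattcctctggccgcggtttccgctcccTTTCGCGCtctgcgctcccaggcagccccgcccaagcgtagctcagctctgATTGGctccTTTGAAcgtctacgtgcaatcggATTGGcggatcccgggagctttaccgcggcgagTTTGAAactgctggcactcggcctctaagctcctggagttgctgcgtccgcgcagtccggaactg
Top2a: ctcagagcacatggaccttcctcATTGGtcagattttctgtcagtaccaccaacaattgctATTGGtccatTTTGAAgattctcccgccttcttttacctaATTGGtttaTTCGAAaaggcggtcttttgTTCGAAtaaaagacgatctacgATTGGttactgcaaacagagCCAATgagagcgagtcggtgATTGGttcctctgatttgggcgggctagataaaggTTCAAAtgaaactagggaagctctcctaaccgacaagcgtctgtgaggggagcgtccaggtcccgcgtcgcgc
Cdc20: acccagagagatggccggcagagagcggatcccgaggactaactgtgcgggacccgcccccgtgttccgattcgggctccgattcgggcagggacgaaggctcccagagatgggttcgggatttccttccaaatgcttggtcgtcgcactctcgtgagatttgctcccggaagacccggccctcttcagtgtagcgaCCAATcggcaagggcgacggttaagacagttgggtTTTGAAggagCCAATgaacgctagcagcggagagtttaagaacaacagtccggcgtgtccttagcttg
Mki67: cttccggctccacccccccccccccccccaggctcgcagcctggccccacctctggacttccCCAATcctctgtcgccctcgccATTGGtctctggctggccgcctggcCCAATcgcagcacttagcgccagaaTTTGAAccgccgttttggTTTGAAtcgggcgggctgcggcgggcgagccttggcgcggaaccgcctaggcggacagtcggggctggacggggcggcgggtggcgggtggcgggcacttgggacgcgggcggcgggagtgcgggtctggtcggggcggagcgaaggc
Mcm5: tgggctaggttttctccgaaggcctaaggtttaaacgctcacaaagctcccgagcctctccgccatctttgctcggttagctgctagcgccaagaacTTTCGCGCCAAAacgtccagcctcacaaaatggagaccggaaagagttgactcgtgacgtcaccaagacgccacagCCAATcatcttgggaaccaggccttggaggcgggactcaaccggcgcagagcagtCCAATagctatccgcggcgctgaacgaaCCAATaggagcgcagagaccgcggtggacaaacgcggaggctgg

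The 4 mitotic windows hold CHR elements together with CCAAT boxes, and the Mcm5 window holds E2F sites in place of a CHR element. In Cdk1 the CHR elements begin 71 and 15 bases upstream of the start, with an E2F site 131 bases upstream. In Mcm5 the 2 E2F matches begin 153 and 149 bases upstream and overlap each other. Over all members with a window, a CHR element was found in 16 of 21 mitotic members (76.2%) and in 4 of 19 replication members (21.1%), beside 21.7% of all 27025 genes with a window. The E2F site was found in 6 of 19 replication members (31.6%) and in 1 of 21 mitotic members (4.76%), beside 2.60% of all genes. A CCAAT box was present in 18 of 21 mitotic members (85.7%) and 13 of 19 replication members (68.4%), beside 41.1% of all genes. These are matches of letters, and the libraries hold no measurement of binding.

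**Figure D1:**
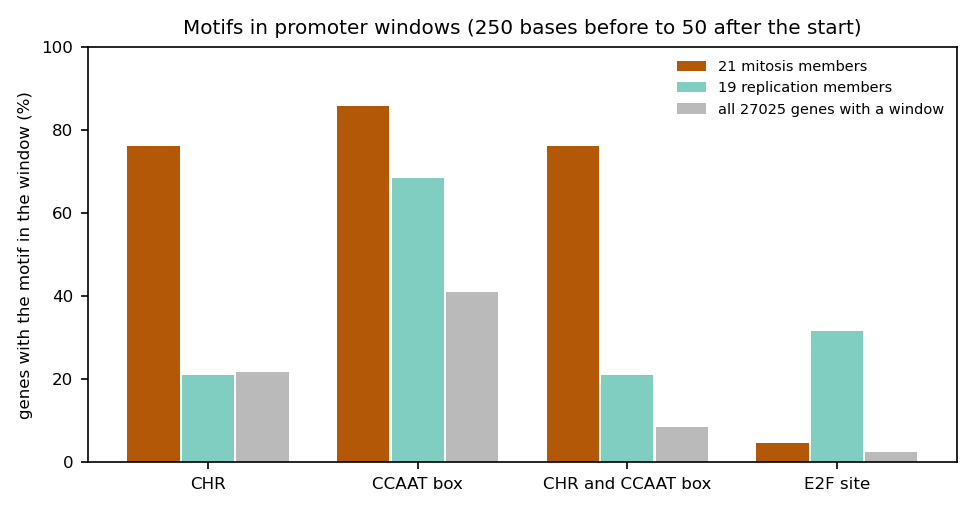
Share of genes (percent) whose RefSeq promoter window holds each motif, for mitotic members, replication members and all genes with a window. The CHR element is found in 76.2% of mitotic members and 21.1% of replication members, and the E2F site in 4.76% and 31.6%.

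The libraries held 21522743 to 35696925 counts, and all 49 members passed the filter on low counts in every comparison. The lowest member count in any library was 100, for Gins1. The library labelled untreated CD8 T stood apart from its label. Its 8 CD8 T cell markers summed to 199.6 CPM (counts put on a common per-library scale by dividing by the library's TMM-scaled total), against 2844 to 4411 CPM in the irradiated CD8 T libraries. Its 6 macrophage markers summed to 8484 CPM, against 577 to 1294 CPM. The comparison of irradiated with untreated CD8 T cells rests on that library alone, and population comparisons are given with and without its pool. Of the other labels, the CD11c+ CD11b+ DC libraries carried macrophage markers at 3798 to 6931 CPM and the 4 markers of cDC2 and mature DCs at 69.8 to 253 CPM. The CD11c+ CD11b- DC libraries carried the 4 cDC1 markers at 36.7 to 384 CPM, the 3 NK cell markers at 502 to 705 CPM and the CD8 T markers at 225 to 436 CPM. Most of that CD8 T marker sum was Lck (170 to 267 CPM) and Cd2 (31.0 to 77.0 CPM). Each other CD8 T marker had no more than 45.6 CPM there. Cd3e had 3.62 to 12.0 CPM there, against 381 to 575 CPM in irradiated CD8 T libraries and 30.0 CPM in the one labelled untreated. Markers of fibroblasts (5 genes, mostly collagens) ran from 399 to 2066 CPM in CD8 T libraries and were most abundant in the untreated pool in all 4 populations, while the 5 carcinoma markers summed to no more than 5.89 CPM in any library.

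Together the 49 genes were most abundant in irradiated CD8 T cells and least abundant in CD11c+ CD11b+ DCs. In CD8 T cells they summed to 6851 CPM with RT+αSIRPα+αPD-1, 8147 with RT+αPD-1, 6262 with RT+αSIRPα and 7030 with RT alone, against 3130 in the library labelled untreated. Their sums in CD11c+ CD11b- DCs were 4425, 3839, 5197 and 4765 CPM under the same 4 treatments in that order, against 3962 untreated. CD8 T cells exceeded CD11c+ CD11b- DCs in each irradiated pool and fell below them in the untreated one. Sums in CD11c+ CD11b+ DCs were 1778, 1326, 2807 and 2129 CPM, against 2608 untreated. For CD11c- CD11b+ myeloid cells they were 2091, 1905, 3379 and 2713 CPM, against 3883 untreated. The last sum is the highest of any CD11b+ library, and both CD11b+ populations had their lowest sum with RT+αPD-1. Over the 4 irradiated pools the mean was 7072 ± 788 CPM in CD8 T cells, 4557 ± 573 in CD11c+ CD11b- DCs, 2010.0 ± 625 in CD11c+ CD11b+ DCs and 2522 ± 668 in CD11c- CD11b+ myeloid cells (SD, n = 4 treatment pools). Over these pools the sums of CD8 T cells, CD11c+ CD11b- DCs and the CD11b+ populations do not overlap, while those of the 2 CD11b+ populations do.

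**Figure D2:**
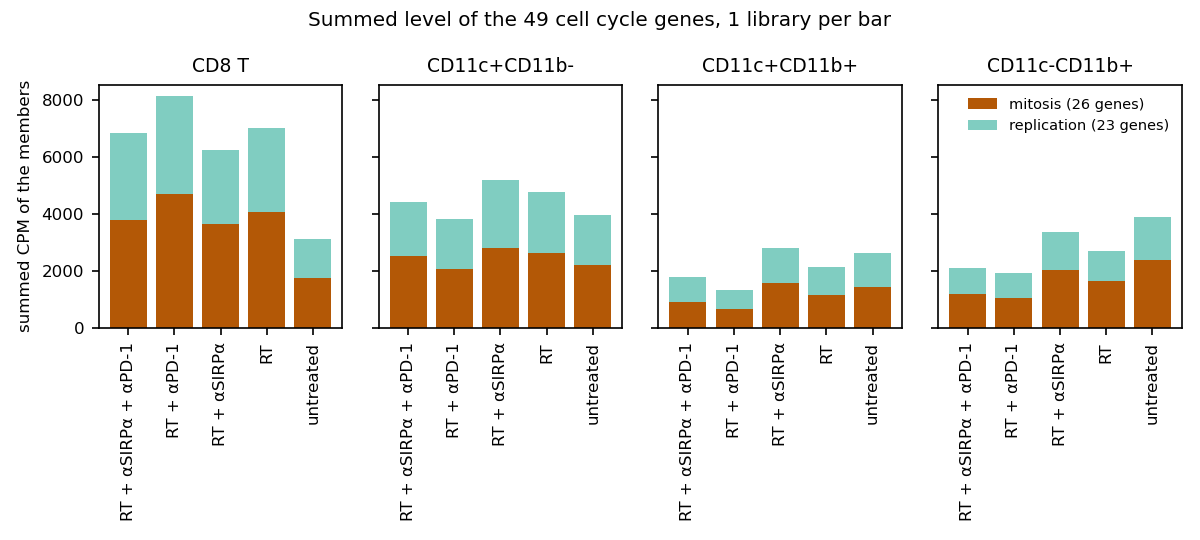
Summed CPM of the 49 cell cycle genes in each of the 20 libraries, by population and treatment, with the replication and mitosis members shown apart. Irradiated CD8 T libraries lie between 6262 and 8147 CPM, above every other library, and the CD11c+ CD11b+ DC library with RT+αPD-1 is lowest at 1326 CPM.

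The order of the populations was nearly the same gene by gene. By the mean over treatments, 40 of the 49 members ran CD8 T cells, CD11c+ CD11b- DCs, CD11c- CD11b+ myeloid cells, CD11c+ CD11b+ DCs from high to low. The highest library of 45 members was CD8 T cells with RT+αPD-1, and the lowest of 45 was CD11c+ CD11b+ DCs with RT+αPD-1. Per kilobase of exon, the highest mean level over the 20 libraries was that of Pcna at 75.5 CPM per kb, followed by Mki67 at 54.0 and Top2a at 49.6, and the lowest was that of the spindle checkpoint kinase Ttk at 2.94. The ratio of the highest to the lowest library was widest for Rrm2 (11.6), Ccna2 (11.4), Nusap1 (10.8) and Mki67 (10.5), and narrowest for E2f1 (1.76), E2f8 (2.37) and Pcna (2.98). Within populations, Top2a followed the mean of the 49 members most closely (Pearson's r of 0.995 over the 20 libraries, each centred on its population). E2f1 followed it least (0.589), with Tk1 at 0.663 and Gins2 at 0.723. Each member is part of that mean, which raises its own r. The libraries of a treatment share a pool, so these 20 points are not independent.

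**Figure D3:**
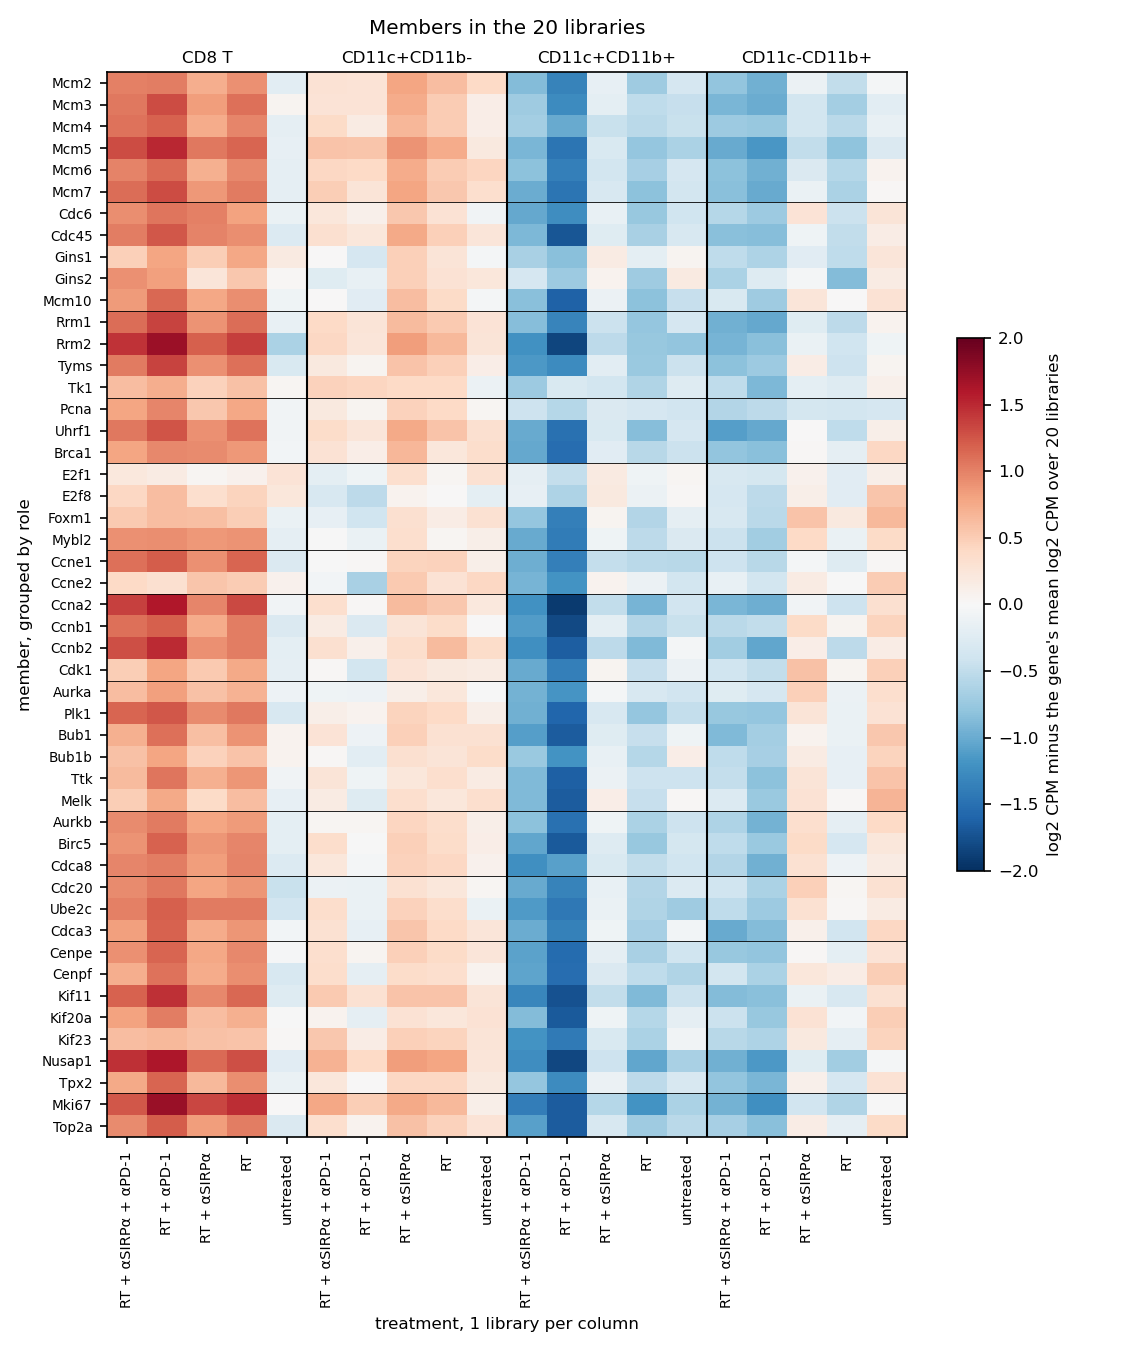
Heat map of log2 CPM for each member, centred on the member's mean over the 20 libraries, with members grouped by role and libraries by population and treatment. The irradiated CD8 T columns are high over nearly all members, the CD11c+ CD11b+ DC column with RT+αPD-1 is low, and the E2f1 and E2f8 rows are nearly flat.

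Members of the replication group differed in how far they varied, Pcna least among the abundant ones. Pcna, the polymerase clamp that also serves DNA repair, had 294, 338, 249, 292 and 163 CPM in CD8 T cells and 195, 178, 236, 225 and 175 CPM in CD11c+ CD11b- DCs (treatments in the order of the sums above, untreated last). Pcna had 128, 115, 140.4, 135 and 130.4 CPM in CD11c+ CD11b+ DCs, and in CD11c- CD11b+ myeloid cells 114, 118, 133, 133 and 135 CPM. Its CD11b+ libraries lay within a narrow band that all irradiated CD8 T libraries exceeded. Cdc45, which turns the loaded MCM ring into a working helicase, had 45.5, 52.5, 44.2, 42.6 and 18.5 CPM in CD8 T cells and 27.8, 26.1, 37.8, 31.0 and 26.2 CPM in CD11c+ CD11b- DCs. The values were 12.0, 6.79, 18.8, 14.2 and 17.8 CPM in CD11c+ CD11b+ DCs, and in CD11c- CD11b+ myeloid cells 12.4, 12.3, 21.1, 15.9 and 24.6 CPM. Ccne1, cyclin E1, had 34.8, 37.6, 30.5, 36.2 and 13.2 CPM in CD8 T cells and 8.22, 6.25, 11.6, 11.1 and 11.0 CPM in CD11c+ CD11b+ DCs. For Cdc45 and Ccne1 as for the sum, the library with RT+αPD-1 was the highest of the CD8 T libraries and the lowest of the CD11c+ CD11b+ DC libraries.

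Among the transcription factors of the module, Mybl2 followed the sum and E2f1 hardly varied. Mybl2, which encodes B-Myb, had 47.9, 48.6, 46.5, 47.6 and 22.6 CPM in CD8 T cells and 12.7, 9.70, 24.1, 17.8 and 20.9 CPM in CD11c+ CD11b+ DCs. Foxm1 had 90.1, 96.2, 95.2, 88.9 and 57.4 CPM in CD8 T cells and 50.3, 43.1, 93.4, 72.1 and 98.5 CPM in CD11c- CD11b+ myeloid cells. Its highest library was the untreated CD11c- CD11b+ one, unlike the 45 members that peaked in CD8 T cells with RT+αPD-1. E2f1 had 25.9, 28.1, 37.7, 30.6 and 36.5 CPM in CD11c+ CD11b- DCs and 26.3, 21.4, 33.8, 27.9 and 30.4 CPM in CD11c+ CD11b+ DCs, and it peaked in CD11c+ CD11b- DCs with RT+αSIRPα. Ccna2, the cyclin that spans S phase and early mitosis, had 153, 179, 116, 148 and 56.3 CPM in CD8 T cells and 25.5, 15.7, 42.0, 31.1 and 45.5 CPM in CD11c+ CD11b+ DCs, with no overlap in the irradiated pools.

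CD11c+ CD11b- DCs had higher levels of almost the whole module than CD11c+ CD11b+ DCs, and leaving out any 1 pool kept 43 to 47 members called. Among CD11c+ CD11b- DCs, Mki67 (gene at chr7:135689784-135716361 on GRCm38, the member with the highest mean CPM) had 737 CPM with RT+αSIRPα+αPD-1, 605 with RT+αPD-1, 728 with RT+αSIRPα and 676 with RT alone, against 465 in the untreated pool. The CD11c+ CD11b+ DCs had, for Mki67, 164 CPM with RT+αSIRPα+αPD-1, 136 with RT+αPD-1, 289 with RT+αSIRPα and 188 with RT alone, against 277 in the untreated pool. The 2 populations did not overlap. In edgeR's quasi-likelihood test with the pool as a block, Mki67 differed by a log2 fold change of 1.65 ± 0.22 (approximate SE; adjusted p = 0.000999, higher in 5 of 5 pools). Of the 49 members 45 were higher and 0 lower, where 23.1% of all genes tested were called higher. The median log2 difference was 0.97 over members and 0.00 over all genes. All 26 mitotic members were called higher, and so were the 6 subunits of the MCM helicase (log2 0.99 to 1.40) and the 4 genes of nucleotide supply, led by Rrm2, the small subunit of ribonucleotide reductase, at 1.49 ± 0.14 (adjusted p = 0.000210). Nusap1, a spindle microtubule protein, differed by 1.61 ± 0.20 and Kif11, the motor that pushes spindle poles apart, by 1.41 ± 0.20. Not called were the GINS subunits Gins1 (0.35) and Gins2 (0.41) and the factors E2f1 (0.18) and E2f8 (-0.06). In the same comparison all 3 NK markers and all 8 CD8 T markers were higher in CD11c+ CD11b- DCs and all 6 macrophage markers were lower, and their part in the result was not tested.

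The same DCs exceeded CD11c- CD11b+ myeloid cells in the helicase and nucleotide genes and in fewer of the mitotic ones. For CD11c+ CD11b- DCs, Mcm5 values were 146 CPM with RT+αSIRPα+αPD-1, 145 with RT+αPD-1, 184 with RT+αSIRPα and 165 with RT alone, against 113 in the untreated pool. The CD11c- CD11b+ myeloid cells had, for Mcm5, 48.7 CPM with RT+αSIRPα+αPD-1, 43.9 with RT+αPD-1, 69.6 with RT+αSIRPα and 56.2 with RT alone, against 80.5 in the untreated pool. Every CD11c+ CD11b- library was above every CD11c- CD11b+ library, and the log2 difference was 1.35 ± 0.18 (edgeR, adjusted p = 0.00106). Of the 49 members 27 were higher and 0 lower, where 23.0% of all genes were called higher, with a median of 0.46 beside 0.00 over all genes. Called higher were 16 of 23 replication members, among them all 6 MCM subunits (log2 0.88 to 1.35) and all 4 genes of nucleotide supply, and 11 of 26 mitotic members. None of the 6 mitotic and checkpoint kinases was called (log2 0.00 to 0.46). Cdk1 (0.01), its partner Ccnb1 (0.13) and the transcription factor Foxm1 (-0.07) were close to 0. Nusap1 differed by 1.21 ± 0.20, Mki67 by 1.20 ± 0.23 and the helicase gene Mcm3 by 1.02 ± 0.14. Leaving out the untreated pool raised the count to 39 (4693 of 19212 genes in all), and leaving out 1 irradiated pool lowered it to 17 (RT alone), 21 (RT+αSIRPα), 18 (RT+αPD-1) or 16 (RT+αSIRPα+αPD-1). The NK markers summed to 502 to 705 CPM in CD11c+ CD11b- DCs, against 6.69 to 44.2 CPM in CD11c- CD11b+ myeloid cells. The macrophage markers summed to 227 to 548 CPM, against 2166 to 3781 CPM, and the neutrophil markers to 7.74 to 20.1 CPM, against 519 to 2830 CPM. Their part in the result was not tested.

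Mitotic genes separated the 2 CD11b+ populations. Ccnb1, cyclin B1, had in CD11c+ CD11b+ DCs 16.0 CPM with RT+αSIRPα+αPD-1, 9.90 with RT+αPD-1, 30.2 with RT+αSIRPα and 23.1 with RT alone, against 25.6 in the untreated pool. The CD11c- CD11b+ myeloid cells had, for Ccnb1, 23.9 CPM with RT+αSIRPα+αPD-1, 24.7 with RT+αPD-1, 45.2 with RT+αSIRPα and 36.0 with RT alone, against 47.3 in the untreated pool. The DCs were the lower in each of the 5 pools although the 2 ranges overlap across pools. The difference with the pool as a block was -0.81 ± 0.11 (edgeR, adjusted p = 0.00146). In all, 35 members were lower and 0 higher in CD11c+ CD11b+ DCs, where 12.9% of all genes were called lower, and the median was -0.49 beside -0.01 over all genes. The lower members were 25 of 26 mitotic genes and 10 of 23 replication genes. Cenpf, a kinetochore protein, differed by -0.78 ± 0.09 and Foxm1 by -0.69 ± 0.08. Of the 6 MCM subunits 1 was called (log2 -0.29 to -0.01), and Mcm10, which acts when origins fire, differed by -0.68 ± 0.09. Without the pool as a block 0 members were called. In the same comparison all 5 fibroblast markers and all 4 neutrophil markers were lower in CD11c+ CD11b+ DCs and all 6 macrophage markers were higher, and their part in the result was not tested.

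CD8 T cells exceeded both CD11b+ populations, and how many members were called depended on the library labelled untreated. For Mki67, CD8 T cells had 1016 CPM with RT+αSIRPα+αPD-1, 1422 with RT+αPD-1, 1087 with RT+αSIRPα and 1196 with RT alone, against 430.4 in the untreated pool. Those 4 irradiated libraries lie above every CD11b+ library given above, while the library labelled untreated lies just below the lowest CD11c+ CD11b- DC library. Against CD11c+ CD11b+ DCs, 43 members were higher in CD8 T cells and 0 lower, where 11.0% of all genes were called higher (median 1.44 beside 0.00 over all genes). Mki67 differed by 2.28 ± 0.41 (edgeR, adjusted p = 0.0241), Nusap1 by 2.10 ± 0.45, Rrm2 by 2.08 ± 0.48 and Ccna2, cyclin A2, by 2.05 ± 0.47. The 6 not called were Cdk1 (1.07), Melk (0.99), Gins1 (0.84), Gins2 (0.82), E2f8 (0.56) and E2f1 (0.27). Against CD11c- CD11b+ myeloid cells, 14 members were higher and 0 lower, where 12.7% of all genes were called higher (median 0.99 beside 0.01). Those 14 hold all 6 MCM subunits, Pcna, Rrm1, Tk1, Uhrf1, Gins1 and Ccne1 but only Mki67 (1.82 ± 0.42, edgeR, adjusted p = 0.0248) and Nusap1 (1.70) of the mitotic genes, and Mcm5 (1.75) and Mcm3 (1.51) led the rest. Without the untreated pool 48 members were called in each of these comparisons, where 4623 of 18947 and 4798 of 19254 genes in all were called higher, and without any single irradiated pool 0 members were. Against CD11c+ CD11b+ DCs no more than 16 genes in all were called higher without an irradiated pool.

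Between CD8 T cells and CD11c+ CD11b- DCs the levels were closer. No member was called in edgeR's test over the 5 pools, where 1.55% of all genes were called higher and 2.74% lower. At an unadjusted p below 0.05, 10 members were higher, where 3479 of 18613 genes passed in either direction. DESeq2 called 1 member higher, and 880 genes in all. The median was 0.42 beside -0.02 over all genes. In the 4 irradiated pools CD8 T cells were the higher in every pool for 45 members, where 18.5% of all genes were, and without the untreated pool 36 members were called (1616 of 18866 genes in all). In the untreated pool the library labelled CD8 T was the higher for 3 members.

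**Figure D4:**
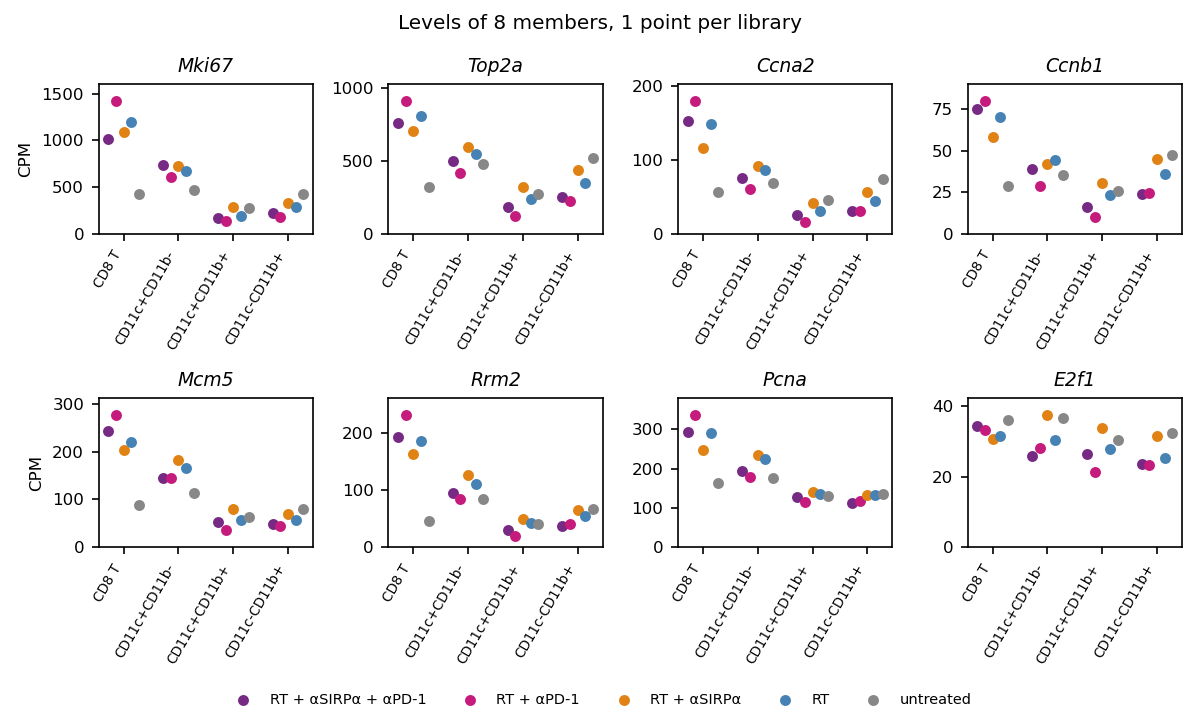
CPM of 8 members (Mki67, Top2a, Ccna2, Ccnb1, Mcm5, Rrm2, Pcna and E2f1), 1 point per library, with the 5 treatments side by side within each population. Mki67, at 1016 to 1422 CPM, and Top2a, at 706 to 909 CPM, are highest in the irradiated CD8 T libraries, and E2f1 varies least.

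Among irradiated CD8 T cells nearly all members were higher than in the library labelled untreated. Rrm2 had 194 CPM with RT+αSIRPα+αPD-1, 233 with RT+αPD-1, 164 with RT+αSIRPα and 187 with RT alone, against 46.2 in the untreated pool. Top2a (gene at chr11:98992943-99024189) had 760.4 CPM with RT+αSIRPα+αPD-1, 909 with RT+αPD-1, 706 with RT+αSIRPα and 804 with RT alone, against 321 in the untreated pool. Cdk1 (gene at chr10:69335146-69352938) had 79.4 CPM with RT+αSIRPα+αPD-1, 97.3 with RT+αPD-1, 81.1 with RT+αSIRPα and 95.2 with RT alone, against 49.9 in the untreated pool. For each of the 3 genes all irradiated libraries lay above the other one. Rrm2 differed by a log2 fold change of 2.06 ± 0.24 (edgeR, adjusted p = 0.00174), Top2a by 1.29 ± 0.19 and Cdk1 by 0.81 ± 0.18, each in 4 of 4 irradiated libraries. After Rrm2 the largest changes were those of Nusap1 (1.60 ± 0.23), Kif11 (1.45 ± 0.22) and Mki67 (1.44 ± 0.24). In all, 42 members were higher and 0 lower, where 11.9% of all genes were called higher and 12.5% lower, with a median of 1.08 beside 0.07 over all genes. The 42 hold 24 of 26 mitotic and 18 of 23 replication members, including every MCM subunit (log2 1.01 to 1.41), every spindle motor and kinetochore gene (0.56 to 1.60) and all 3 chromosomal passenger genes, Aurkb, Birc5 and Cdca8. Birc5, survivin, had 61.0 CPM with RT+αSIRPα+αPD-1, 74.1 with RT+αPD-1, 60.3 with RT+αSIRPα and 64.1 with RT alone, against 28.4 in the untreated pool. The 7 not called were the spindle checkpoint kinases Bub1 and Bub1b, both GINS genes, Ccne2, E2f8 and E2f1. E2f1, the S phase factor, had 34.4 CPM with RT+αSIRPα+αPD-1, 33.2 with RT+αPD-1, 30.6 with RT+αSIRPα and 31.6 with RT alone, against 36.0 in the untreated pool, so it was the 1 member lower in every irradiated library. In this comparison all 8 CD8 T markers were higher and all 6 macrophage markers lower in the irradiated libraries, none of them at 0 in any CD8 T library, and their part in the result was not tested. The test has a single library on the untreated side, which was assumed to vary like the irradiated ones.

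In the myeloid populations the same comparison gave no called member, and values ran the other way in CD11b+ cells. In CD11c- CD11b+ myeloid cells Plk1, the polo-like kinase of mitosis, had 19.8 CPM with RT+αSIRPα+αPD-1, 19.7 with RT+αPD-1, 40.3 with RT+αSIRPα and 30.7 with RT alone, against 41.1 in the untreated pool. Aurkb, Aurora B, had there 21.2 CPM with RT+αSIRPα+αPD-1, 16.7 with RT+αPD-1, 41.0 with RT+αSIRPα and 28.5 with RT alone, against 42.8 in the untreated pool. The irradiated libraries lay below the untreated one for Plk1 and Aurkb, and for 40 members in all, where 29.7% of all genes had no overlap in that direction. The median log2 difference was -0.64 beside 0.02 over all genes, and edgeR called 0 members (0.0047% of all genes higher and 0.0% lower, 15 members lower at an unadjusted p below 0.05, 0 by DESeq2). Without the RT+αSIRPα pool, whose summed level was nearest the untreated one, 28 members were called lower, where calls over all 21129 genes tested also went up, to 1629 higher and 1764 lower. In CD11c+ CD11b+ DCs the median was -0.39 beside 0.02, 12 members lay below without overlap (27.1% of all genes), and edgeR called 0 members (0.257% of all genes higher and 0.0857% lower, 2 members lower at an unadjusted p below 0.05, 0 by DESeq2). That median was -0.61 without the RT+αSIRPα pool, with 3 members called lower (771 genes higher and 813 lower of 20690), and -0.22 without the RT+αPD-1 pool. In CD11c+ CD11b- DCs the median was 0.06 beside 0.03, and edgeR called 0 members (0.00475% of all genes higher and 0.0143% lower, 3 higher at an unadjusted p below 0.05, 2 by DESeq2). Member counts at an unadjusted p or by DESeq2 have no number over all genes beside them in this comparison. The fibroblast markers summed to 1205 to 2670 CPM in irradiated CD11c- CD11b+ myeloid cells, against 5765 CPM in untreated ones, and to 723 to 1657 CPM in irradiated CD11c+ CD11b+ DCs, against 4412 CPM, and their part in these values was not tested.

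The response to irradiation differed between myeloid populations for 6 members. The test set CD11c+ CD11b- DCs against the mean of both CD11b+ populations, and the 6 were called higher, where 1.49% of all genes were called higher and 1.79% lower, with 37 members at an unadjusted p below 0.05. They were Mki67 (1.25 ± 0.26, edgeR, adjusted p = 0.0364), Ccna2 (1.02 ± 0.23), Rrm1, the large subunit of ribonucleotide reductase (0.82 ± 0.18), and the helicase genes Mcm5 (0.91 ± 0.21), Mcm7 (0.79 ± 0.18) and Mcm4 (0.63 ± 0.12). The median over members was 0.66 beside 0.03 over all genes, and the 37 have no number over all genes beside them. The Mki67 values given above differ in this way, for CD11c+ CD11b- DCs had 605 to 737 CPM in irradiated pools and 465 untreated, while CD11c+ CD11b+ DCs had 136 to 289 and 277. Leaving out 1 irradiated pool gave 0 members (RT alone, or RT+αSIRPα+αPD-1), 7 (RT+αPD-1) or 24 (RT+αSIRPα, with 897 of 19952 genes in all), and without the pool as a block 0 were called. The fibroblast markers summed to 405 to 1520 CPM in irradiated CD11c+ CD11b- DCs, against 5914 CPM in untreated ones. The cDC1 markers summed to 132 to 384 CPM, against 36.7 CPM, and those of cDC2 and mature DCs to 146 to 406 CPM, against 48.0 CPM. The part of these markers in the result was not tested.

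**Figure D5:**
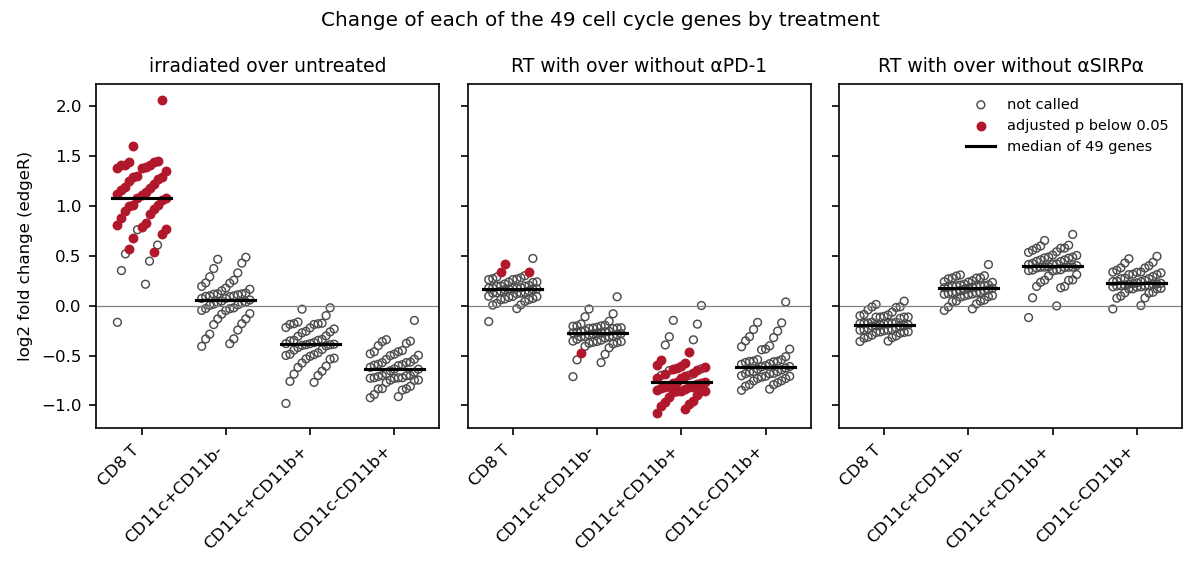
Log2 fold changes of the 49 members in each population for irradiation, αPD-1 and αSIRPα, with 1 point per member and the median of the 49 as a line. Irradiation values lie above 0 for 48 members in CD8 T cells and below 0 for all 49 in both CD11b+ populations, and αPD-1 values lie below 0 for 48 members in each myeloid population.

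Among irradiated tumours, αPD-1 went with lower cell cycle transcripts in CD11c+ CD11b+ DCs. Melk, a mitotic kinase, had 12.7 CPM with RT+αSIRPα+αPD-1 and 7.38 with RT+αPD-1, against 25.6 with RT+αSIRPα and 16.9 with RT alone. Cdk1 had 28.2 and 21.8 CPM with αPD-1 in the same order, against 58.4 and 41.0 without it. Top2a had 185 and 124 CPM with αPD-1, against 317 and 240.3 without it. In all 3 genes both libraries with αPD-1 lay below both without it, as they did for 47 of 49 members, where 28.5% of all genes did. With αSIRPα as a second term, the log2 change was -1.07 ± 0.13 for Melk (edgeR, adjusted p = 0.00958), -0.95 ± 0.10 for Cdk1 (adjusted p = 0.00803) and -0.84 ± 0.08 for Top2a (adjusted p = 0.00746). The 39 members called lower, where 4.74% of all genes were (1.92% higher), took in all 26 mitotic genes and 13 of 23 replication genes, with none higher. The median was -0.76 beside 0.00 over all genes. Of the cyclins, Ccnb1 changed by -1.03 ± 0.13, Ccne2 by -1.01 ± 0.17 and Ccna2 by -0.82 ± 0.11, the checkpoint kinase Bub1 changed by -0.99 ± 0.14, and of the MCM genes 5 of 6 fell. The 10 not called were Tk1 (0.00), Pcna (-0.15), Mcm4, Gins1, Gins2, Cdc6, Tyms, Ccne1, E2f1 and E2f8. The fibroblast markers summed to 839 and 723 CPM with αPD-1, against 1657 and 1047 CPM without it, with 3 of 5 called lower and none at 0, and none of the 6 macrophage markers was called. Their part in the result was not tested. This test has 1 residual degree of freedom, and 0 members were called with no filter on low counts or with αSIRPα dropped from the model. A fit over all 16 irradiated libraries called 40 members lower, and 0 without any 1 of the 4 CD11c+ CD11b+ DC libraries. Calls over all genes in that wider fit are not given here, so the 40 have no share to be read against.

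The other myeloid populations also had lower values with αPD-1, and how many members passed depended on the fit. In CD11c- CD11b+ myeloid cells Cdc20 had 25.7 and 21.8 CPM with αPD-1, against 47.2 with RT+αSIRPα and 34.7 with RT alone. Both values with αPD-1 were below both without, which held for 47 members, where 26.2% of all genes did so. The median was -0.61 beside 0.02 over all genes, and edgeR called 0 members (0.0% of all genes in either direction), with 42 lower at an unadjusted p below 0.05 and 16 called by DESeq2. The 42 and the 16 have no number over all genes beside them here. The fit over all 16 irradiated libraries called 31 members lower there (581 of 20624 genes in all), and 0 without the RT+αSIRPα or the RT+αSIRPα+αPD-1 library of that population. In CD11c+ CD11b- DCs the median was -0.28 beside 0.01, and 42 members did not overlap in that direction (30.6% of all genes). The 1 member called there was Foxm1, at -0.48 ± 0.09 (edgeR, adjusted p = 0.0485), where 2.89% of all genes were called lower and 1.22% higher. Foxm1 had 56.0 and 48.0 CPM with αPD-1, against 78.6 and 69.5 without it. It was not called with DESeq2, with its size factors, with no filter on low counts or with αSIRPα dropped from the model. In these DCs the fibroblast markers summed to 446 and 405 CPM with αPD-1, against 1520 and 856 CPM without it, and the macrophage markers to 293 and 227 CPM, against 390.3 and 507 CPM. In CD11c- CD11b+ myeloid cells the macrophage markers summed to 3645 and 3781 CPM with αPD-1, against 2166 and 2886 CPM without it. NK markers there had 34.25 and 44.22 CPM, against 7.18 and 16.7 CPM, and fibroblast markers 1205 and 1489 CPM, against 2670 and 1712 CPM. Neutrophil markers there overlapped (861 and 1403 CPM, against 2830 and 519 CPM). Their part in the result was not tested.

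In CD8 T cells αPD-1 went with slightly higher levels, and 3 members were called, where 2.69% of all genes were called higher and 4.28% lower. Ccnb2, cyclin B2, had 75.2 and 86.0 CPM with αPD-1, against 58.1 with RT+αSIRPα and 62.7 with RT alone. The groups did not overlap, and the change was 0.42 ± 0.08 (edgeR, adjusted p = 0.0264). Ccna2 changed by 0.34 ± 0.07 and Nusap1 by 0.34 ± 0.08. The median was 0.17 beside 0.01 over all genes, and 0 members were called by DESeq2. All 8 CD8 T markers were also higher with αPD-1 (log2 0.50 to 0.63) and 5 of 6 macrophage markers lower, and their part in the result was not tested.

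The αPD-1 response of CD8 T cells differed from that of the myeloid populations. With pool and population in 1 model, the αPD-1 effect in CD8 T cells minus its mean over the 3 myeloid populations was above 0 for all 49 members and called for 29, where 1.0% of all genes were called higher and 2.53% lower. Ccna2 differed by 0.96 ± 0.14 (edgeR, adjusted p = 0.0203), Ccnb1 by 0.97 ± 0.18 (adjusted p = 0.0342), Ccnb2 by 0.95 ± 0.17 and the cytokinesis motor Kif20a by 0.88 ± 0.13. The median was 0.70 beside -0.03 over all genes. None was called when any 1 CD8 T library was left out, or with no filter on low counts.

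No member passed the test for αSIRPα in any population, and the values leaned up in myeloid cells and down in CD8 T cells. The largest median was 0.40 (beside 0.00 over all genes) in CD11c+ CD11b+ DCs, where edgeR called 0 members (0.125% of all genes higher and 0.0313% lower), 39 were higher at an unadjusted p below 0.05 and DESeq2 called 1. Foxm1 there had 37.0 CPM with RT+αSIRPα+αPD-1 and 65.6 with RT+αSIRPα, against 24.4 with RT+αPD-1 and 41.9 with RT alone. The groups overlap, and within each level of αPD-1 the library with αSIRPα is the higher (0.60 ± 0.09, adjusted p = 0.0878 by edgeR). In the same order, fibroblast markers there summed to 839 and 1657 CPM, against 723 and 1047 CPM. Markers of cDC2 and mature DCs summed to 222 and 69.8 CPM, against 225 and 253 CPM. In CD11c- CD11b+ myeloid cells the neutrophil markers summed to 861 and 2830 CPM, against 1403 and 519 CPM. The part of these markers in the values was not tested. In CD8 T cells the median was -0.19 beside 0.02, with 0 members called by edgeR or DESeq2 (0.0905% of all genes higher and 0.0106% lower by edgeR) and 22 lower at an unadjusted p below 0.05. In CD11c+ CD11b- DCs the median was 0.17 beside 0.03 and in CD11c- CD11b+ myeloid cells 0.22 beside 0.00, with 8 members higher at an unadjusted p below 0.05 in each and 0 called by edgeR or DESeq2 (0.00523% and 0.0% of all genes higher). In the fit over all 16 irradiated libraries, leaving out 1 CD11c- CD11b+ library at a time gave medians of 0.11 (RT alone, or RT+αSIRPα) or 0.38 (RT+αPD-1, or RT+αSIRPα+αPD-1) there, with 2 or 28 members higher at an unadjusted p below 0.05. The difference between CD8 T and myeloid cells had a median of -0.47 beside 0.01, with 44 members lower at an unadjusted p below 0.05, 9 by DESeq2 and 0 by edgeR (0.0% of all genes). For αSIRPα the member counts at an unadjusted p and by DESeq2 have no number over all genes beside them.

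Set side by side, single libraries show how the antibodies combined. In CD11c+ CD11b+ DCs the summed CPM with both antibodies was 1.34 times that with RT+αPD-1 and 0.633 times that with RT+αSIRPα. In CD11c- CD11b+ myeloid cells the same ratios were 1.10 and 0.619, and in CD11c+ CD11b- DCs 1.15 and 0.852. In CD8 T cells they were 0.841 and 1.09. The pool with both antibodies lay between the pools with 1 antibody in each population. These ratios compare 1 library with 1 library and have no replicate check.

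The balance of replication to mitosis members also varied between populations. The summed CPM of replication members divided by that of mitotic members was 0.802, 0.730, 0.724 and 0.735 in irradiated CD8 T cells in the treatment order above, against 0.806 in the library labelled untreated. It was 0.747, 0.849, 0.866 and 0.805 in irradiated CD11c+ CD11b- DCs, against 0.807 untreated. It was 0.998, 1.05, 0.806 and 0.878 in irradiated CD11c+ CD11b+ DCs, against 0.810 untreated. It was 0.748, 0.801, 0.659 and 0.672 in irradiated CD11c- CD11b+ myeloid cells, against 0.643 untreated. CD11c+ CD11b+ DCs exceeded CD11c- CD11b+ myeloid cells in every pool, and the highest ratio in either population was with RT+αPD-1, where both had their lowest module sum.

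Beyond the members, 61 other cell cycle genes were read in the same tests. In irradiated CD8 T cells against the library labelled untreated, 42 were higher, 3 lower and 16 not called (median 0.92; 11.9% of all genes were called higher and 12.5% lower), including all 9 fork genes, all 6 condensin and cohesin genes and all 5 kinetochore genes, while of 7 CDK inhibitors 1 was higher and 1 lower. Dut, which clears dUTP, changed by 2.24 (edgeR, adjusted p = 0.00229) and the pocket protein Rbl2 by 1.69. The lower genes were the CDK inhibitor Cdkn1a, the checkpoint kinase Chek2 and the retinoblastoma gene Rb1, at -1.19, -0.66 and -0.52. The part of the macrophage markers of the library labelled untreated in these changes was not tested. In CD11c+ CD11b- DCs against CD11c+ CD11b+ DCs, 45 were higher, 6 lower and 10 not called (median 0.80; 23.1% of all genes higher and 22.3% lower), with Cdkn1a at -1.84 (edgeR, adjusted p = 3.11e-05) and Rb1 at -0.94 among the lower ones and the inhibitor Cdkn2c at 1.65 among the higher. In CD11c+ CD11b+ DCs against CD11c- CD11b+ myeloid cells, 2 were higher (Ccnd2, cyclin D2, at 1.07 and Rb1 at 0.50), 33 lower and 26 not called (12.0% of all genes higher and 12.9% lower). With αPD-1 in CD11c+ CD11b+ DCs 0 were higher and 23 lower (1.92% of all genes higher and 4.74% lower), among them Cdkn2b at -1.31, the repressor E2f7 at -1.01 and the kinetochore gene Nuf2 at -0.93. With αPD-1 in CD8 T cells 2 were higher, Rbl2 and Dut, and 3 lower, Ccnd1 (cyclin D1) at -1.16, Cdkn2b and the cytokinesis gene Anln, shares close to the 2.69% of all genes called higher and 4.28% lower.

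Cdkn1a, whose product p21 blocks cyclin-dependent kinases and is induced by p53 after DNA damage, was highest, among the irradiated pools, in the 2 populations where the module was lowest. The CD11c+ CD11b+ DCs had 511 CPM with RT+αSIRPα+αPD-1, 506 with RT+αPD-1, 438 with RT+αSIRPα and 521 with RT alone, against 265 in the untreated pool. CD11c+ CD11b- DCs had 146 CPM with RT+αSIRPα+αPD-1, 178 with RT+αPD-1, 108 with RT+αSIRPα and 170.2 with RT alone, against 57.2 in the untreated pool. The CD8 T cells had 127 CPM with RT+αSIRPα+αPD-1, 105 with RT+αPD-1, 138 with RT+αSIRPα and 145 with RT alone, against 289 in the untreated pool. Every irradiated CD11c+ CD11b+ DC library exceeded every library of these 2 populations. For CD11c- CD11b+ myeloid cells Cdkn1a was at 462 CPM with RT+αSIRPα+αPD-1, 522 with RT+αPD-1, 342 with RT+αSIRPα and 409 with RT alone, against 178 in the untreated pool. Irradiated myeloid libraries were above their untreated one in each population, and irradiated CD8 T libraries were below theirs. Within irradiated CD11c+ CD11b+ DCs, Cdkn1a with αPD-1 lay inside its range without αPD-1, although the module sum was lower. Other CDK inhibitors ran the other way between populations. Cdkn2c had 22.1 to 31.8 CPM in irradiated CD8 T cells and 4.87 to 11.7 CPM in irradiated CD11c+ CD11b+ DCs. Cdkn2d had 29.2 to 38.0 CPM and 10.8 to 14.3 CPM. The library labelled untreated CD8 T held macrophage markers at 8484 CPM and CD8 T markers at 199.6 CPM. Their part in its Cdkn1a level was not tested. None of the 61 genes was called by edgeR for irradiation in any of the 3 myeloid populations, Cdkn1a included (adjusted p = 0.0945, 0.0637 and 0.173 in CD11c+ CD11b- DCs, CD11c+ CD11b+ DCs and CD11c- CD11b+ myeloid cells).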

How the data were processed

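Per the labels' protocols, leukocytes pooled from 10 tumours were sorted into 4 populations and sequenced, giving 20 libraries. The authors deposited 1 table of estimated counts per transcript. FastQC 0.11.8, HISAT2, StringTie, edgeR 3.34.0 and GRCm38 are named per the submitters' processing notes, with no version for HISAT2 or StringTie (not given in the sources used here). All deposited values were whole numbers, so none was rounded. Of 142699 transcripts, 141469 matched the GENCODE annotation and gave sums for 55260 genes. The remaining 1230 carried no more than 0.399% of the counts in any library. No columns were left over and no pair of libraries was identical. Mitochondrial genes took 0.745 to 1.89% of counts. Between 93.8 and 97.9% of a library's member counts lay on protein-coding transcripts.

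CPM values were computed after TMM scaling. Differences were tested across all genes with edgeR's quasi-likelihood test (edgeR 4.0.16, limma 3.58.1, R 4.3.3) after its default filter (minimum count 10, minimum total 15), with Benjamini-Hochberg adjusted p below 0.05 as the threshold; standard errors are approximate, taken from the fold change and its F value. Populations were compared over 5 pools with the pool as a block, because the populations of a pool come from the same tumours. Irradiation was tested as 4 irradiated libraries against 1 untreated library within a population. αPD-1 and αSIRPα were tested as additive terms over the 4 irradiated libraries of a population. Counts of members at an unadjusted p below 0.05 are given for description. Only that for CD8 T cells against CD11c+ CD11b- DCs has the number over all genes beside it. Deviations from population means correlated within a pool at -0.0634 to 0.665 over 30 library pairs (median 0.202, 20382 genes, above 0.1 in 22 pairs). The scripts were tested on simulated data.

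The alternatives were DESeq2 1.42.0 and its size factors, no filter on low counts, no block, wider fits, models with other terms, and leaving out 1 library or pool; the last, for antibody effects and differences between populations, was added after seeing the data. The 17 members given with most values were picked to cover every role, and each comparison also names the members with the largest changes and those not called where few. Members and lists were chosen with earlier results of these data known. Promoter windows and motifs came from RefSeq sequence (GRCm38.p6), matched by symbol. Tables and figures used Python 3.11.15, numpy 2.4.6, pandas 2.3.3 and matplotlib 3.10.9. Total counts per library limit precision to counting error of about the square root of a gene's count, and no group had a second library.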

Additional observations from a re-analysis of the deposited data

Results flagged for a closer look

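In CD8 T cells 5 members had 1 library set far apart from the other 4, in each case the library labelled untreated. Plk1 had 26.9 CPM there, Aurkb 28.4 CPM, Cdc20 24.8 CPM, Foxm1 57.4 CPM and Mybl2 22.6 CPM, each below all irradiated libraries of that population. Tests of this kind were made on 84 groups of 5 libraries, and chance flags about 1 in 20 groups. The same library held few CD8 T cell markers and many macrophage markers, and their part in these values was not tested.

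The effect of αPD-1 in CD8 T cells minus its mean over the 3 myeloid populations was above 0 for all 49 members, and 29 of them passed edgeR's test of that difference, beside 1.0% of all genes called higher and 2.53% lower. None passed when any 1 CD8 T library was left out or with no filter on low counts. The effect of irradiation in CD11c+ CD11b- DCs minus its mean over both CD11b+ populations was above 0 for 47 members, and 6 passed the test, beside 1.49% of all genes called higher and 1.79% lower. That count was 0 to 24 when 1 pool was left out, and 0 with no filter on low counts or without the pool as a block.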

How the results depend on the processing

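Of 224 counts and levels under settings other than leaving out a library, 189 stayed close to the main value and 35 moved. Of 180 counts on leaving out a library or pool, 145 stayed close and 35 moved. Close means a count of similar size (0 in both included), a median within the SD over pools, or the same rank. Counts and levels were not scored for a change of direction. Among named members called in the main fit, 1139 values were recomputed and 0 changed sign. These values lost their call 133 times under other settings and 245 times on leaving out a library or pool. With no filter on low counts, members called fell to 13 for CD8 T cells over CD11c+ CD11b+ DCs and 5 for CD8 T cells over CD11c- CD11b+ myeloid cells, and to 0 for αPD-1 in CD8 T cells, CD11c+ CD11b- DCs and CD11c+ CD11b+ DCs and for both differences between populations. DESeq2 called 1 member for CD8 T cells over CD11c+ CD11b- DCs, 34 for CD8 T cells over CD11c- CD11b+ myeloid cells, 2 for irradiated CD11c+ CD11b- DCs, 0 for αPD-1 in CD8 T cells and in CD11c+ CD11b- DCs, 16 for αPD-1 in CD11c- CD11b+ myeloid cells, 1 for αSIRPα in CD11c+ CD11b+ DCs, 9 for the αSIRPα difference and 17 for the irradiation difference. Its size factors gave 1 and 0 for αPD-1 in CD8 T cells and CD11c+ CD11b- DCs. Without the replicate block (the pool), 1 member was called for CD8 T cells over CD11c+ CD11b- DCs, 34 for CD8 T cells over CD11c- CD11b+ myeloid cells, 0 between the CD11b+ populations and 0 for the irradiation difference. A single fit over 20 libraries gave 1, 45, 14, 0 and 23 members for CD8 T cells over CD11c+ CD11b- DCs, CD8 T cells over CD11c- CD11b+ myeloid cells, CD11c+ CD11b- DCs over CD11c- CD11b+ myeloid cells, the CD11b+ pair and irradiated CD8 T cells. Terms for both antibodies gave 1 member higher in irradiated CD11c+ CD11b- DCs and 6 lower in irradiated CD11c+ CD11b+ DCs. With αSIRPα dropped, αPD-1 called 0 in CD8 T cells, CD11c+ CD11b- DCs and CD11c+ CD11b+ DCs. A single fit over 16 irradiated libraries called 0, 3 and 31 for αPD-1 in CD8 T cells, CD11c+ CD11b- DCs and CD11c- CD11b+ myeloid cells. Calls over all genes moved too. For CD8 T cells over CD11c+ CD11b- DCs, 288 genes were called higher in the main fit and 880 by DESeq2. Without the block 340 were, and in the fit over 20 libraries 1100 were. For the other comparisons the calls over all genes are not given here, so their member counts have no share beside them. The cause of these moves was not tested.

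Leaving out 1 pool or library gave 0 to 36, 0 to 48 and 0 to 48 members for CD8 T cells over CD11c+ CD11b- DCs, CD11c+ CD11b+ DCs and CD11c- CD11b+ myeloid cells, 16 to 39 for CD11c+ CD11b- DCs over CD11c- CD11b+ myeloid cells, 0 to 3 and 0 to 28 lower in irradiated CD11c+ CD11b+ DCs and CD11c- CD11b+ myeloid cells, 0 to 28 lower for αPD-1 in CD11c- CD11b+ myeloid cells, 0 to 24 for the irradiation difference, and 0 (both ends) for the other αPD-1 results and its difference. Calls over all genes moved with these omissions too. For CD8 T cells over CD11c+ CD11b- DCs, 1616 of 18866 genes were called higher without the untreated pool, where 36 members were. Without the RT alone pool 61 of 18753 genes and 0 members were. Where no calls over all genes are given above, the other ranges have no share beside them. Depth did not bring any member under the filter, and 1 library per group limits every comparison.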

Other observations

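Among 10441 genes outside the module at 10 CPM or more in at least 2 libraries, those that followed the module mean most closely within populations were themselves mostly genes of DNA replication, chromatin and mitosis. Kif4, a chromosome-bound motor, came first (Pearson's r of 0.991 over 20 libraries, each centred on its population mean), followed by Clspn, which holds the replication checkpoint at the fork (0.988), the histone gene Hist1h2bn (0.987) and the spindle protein Tacc3 (0.987). The stress granule protein G3bp1, not a cell cycle gene by its name, followed at 0.986. The next 5 were the histone genes Hist1h2ae and Hist1h2ab, the polymerase gene Pole, the chromosomal passenger gene Incenp and the kinetochore gene Nuf2, down to 0.985. The libraries of a pool are not independent, and histone genes of a cluster resemble each other in sequence, so their counts are uncertain.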
